A study of Mus musculus with 3 samples.

Results

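Nuclear ribosomal RNA and rDNA-like loci made up 1390 of the 462392 positions in a list of RNA crosslink positions from an iCLIP study of ZFP36L1 in mouse thymocytes. The members were the positions whose biotype label was rRNA, with 112 positions, and those named Gm26924, with 926, or Gm26917, with 352, both transcripts annotated over an rDNA-like locus on chromosome 17. They were chosen by label, and each was weighted by its count. The positions came from iCLIP, in which ultraviolet light links a protein to the RNA it touches and reverse transcription stops beside the link. The libraries were 1 of DCKO and 2 of WT genotype, all from total naive thymocytes of the strain C57BL/6JBabr, irradiated intact at 300 mJ/cm2 and precipitated with a Brf1/2 antibody. Brf1 and Brf2 are older names of ZFP36L1 and ZFP36L2, and DCKO mice carry conditional deletions of both. The list does not tell crosslinks to the one protein from those to the other, or from background. The WT libraries came from independent experiments. The labels give neither the promoter that drives the deletion nor the ages of the mice. They also do not say which libraries entered the list, and the list has no library column, so DCKO and WT thymocytes could not be compared and replicate error is unknown for every value. Intervals are 95% and cover counting error only.

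Ribosomal RNA is the most abundant RNA of a cell. RNA polymerase I copies the rDNA repeats of the nucleolus into a precursor that holds the 18S, 5.8S and 28S rRNAs between spacers, which are cut away and degraded, and RNA polymerase III copies the 5S rRNA from separate genes. ZFP36L1 is a zinc finger protein known for binding AU-rich elements in the 3′ ends of mRNAs and promoting their decay. Reads of rRNA are commonly found in crosslinking libraries.

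The bases that carried most of the members' counts lay in the 18S-like copy of the chromosome 17 locus, which RefSeq names Rn18s-rs5, at chr17:39846354-39848202 on the plus strand of GRCm38 (1849 nt). In GENCODE vM21 the interval of Gm26924 (chr17:39846958-39848788, plus strand, labelled lincRNA in the list) is named Gm42418. It begins at base 605 of the 18S-like copy and runs 586 nt past its end. The 4 windows of 25 nt with the highest summed counts are shown with 20 nt on either side, since they hold more counts than the rest of the transcript, and capitals mark positions with a count of 100 or more.
Window 1 (chr17:39847470-39847534, plus strand): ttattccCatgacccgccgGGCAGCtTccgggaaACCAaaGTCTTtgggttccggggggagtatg
Window 2 (chr17:39847192-39847256, plus strand): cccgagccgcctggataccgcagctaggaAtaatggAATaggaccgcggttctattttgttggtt
Window 3 (chr17:39847894-39847958, plus strand): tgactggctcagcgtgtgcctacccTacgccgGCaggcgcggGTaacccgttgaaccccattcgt
Window 4 (chr17:39848076-39848140, plus strand): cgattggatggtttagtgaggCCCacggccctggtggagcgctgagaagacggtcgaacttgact
The next stretch is shown because the density of counts dropped there. Capitals mark the last bases of the 18S-like copy and lower case the sequence after it, where the first internal transcribed spacer follows the 18S rRNA in an rDNA repeat.
End of the copy (chr17:39848163-39848242, plus strand): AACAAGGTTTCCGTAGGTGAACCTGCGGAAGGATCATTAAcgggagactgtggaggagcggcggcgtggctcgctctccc
The highest position of Gm26917 is shown with 30 nt on either side, and capitals mark positions with a count of 10 or more.
Gm26917 (chr17:39845910-39845970, plus strand): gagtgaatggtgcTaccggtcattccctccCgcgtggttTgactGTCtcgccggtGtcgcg

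Gm26924 held the highest summed count of the 14592 gene names in the list. It carried 17350 of 814493 listed counts, or 2.13% (Wilson interval 2.099 to 2.162), on 926 positions. The next names by summed count were Malat1, a nuclear non-coding RNA, with 6285, the chromatin organiser gene Satb1 with 5268, the mitochondrial rRNA mt-Rnr2 with 4507, the Mediator kinase gene Cdk8 with 4108 and the T cell factor gene Bcl11b with 3281. All members together carried 19116 counts, or 2.347% (Wilson interval 2.314 to 2.38), although they made up 0.3006% of positions. Gm26917 ranked 24 among the names with 1462 counts, and the rRNA-labelled genes together held 304 counts.

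High counts at single bases were common among the members, mainly in Gm26924. A count of 10 or more stood at 26.12% of member positions, against 0.5963% of the other positions, and a count of 1 at 17.99%, against 50.61%. A count of 10 or more stood at 34.88% of positions in Gm26924, 9.659% in Gm26917 and 5.357% of rRNA-labelled positions, of which 54.46% had a count of 1. It stood at 17.61% in mt-Rnr2, 10.88% in the mitochondrial rRNA mt-Rnr1, 10.13% in Malat1 and 13.58% in the tRNA synthetase gene Lars2. Members made up 10 of the 20 highest positions of the list and 33 of the 89 positions with a count of 100 or more, and all 33 lay in Gm26924. A further 12 of those 89 lay at the same locus under an intergenic label.

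All 2247 listed positions of the chromosome 17 locus, from the start of Gm26917 to the end of Gm26924, were on the plus strand, and none was on the minus strand, where GENCODE annotates the rRNA gene CT010467.1. These plus-strand positions held 27964 counts. Of them, 969 positions with 9152 counts had an intergenic label and were therefore no members. They included bases 1 to 604 of the 18S-like copy, which had 256 positions and 6023 counts, with 330 at the highest. The label thus split the 18S-like copy at the first base of Gm26924, and the whole copy held 22234 counts on 947 positions. Compared with annotated rRNA sequences by blastn, 92.35% of member counts lay in windows with a match, which for most is their own locus. The share was 100% in Gm26924, whose interval overlaps annotated rRNA, and 0% in Gm26917. None of the sequences searched covers the Gm26917 stretch, so its 0% does not tell whether that stretch is rDNA-like.

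**Figure D1:**
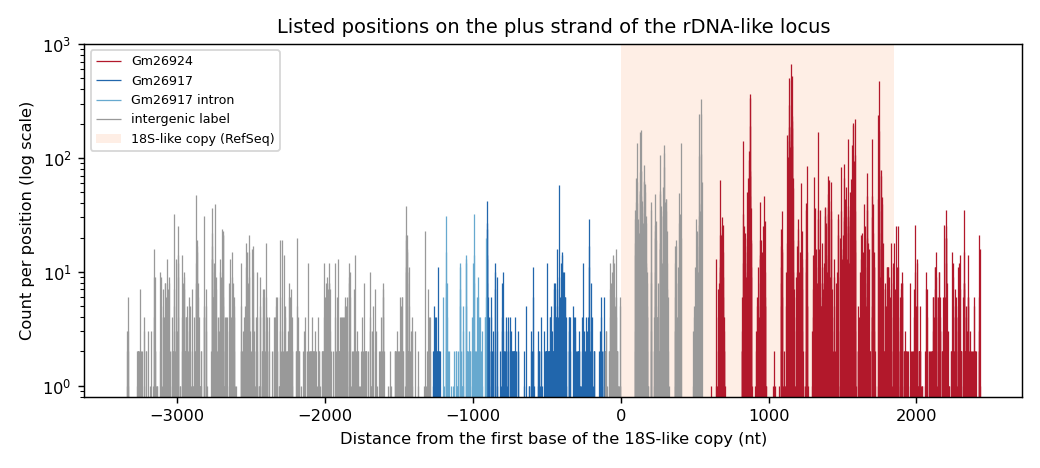
Count of each listed position on the plus strand (log scale) against its distance in nt from the first base of the 18S-like copy, with colours for the label in the list and a shaded band for the copy. The tallest lines, up to 664, stand inside the band, and the grey lines in its first 604 nt carry the intergenic label.

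Within Gm26924 the counts were concentrated in the 18S-like copy. Its 1245 nt of copy held 16211 counts, 93.44% of those of Gm26924, at 13.02 per nt (exact Poisson interval 12.82 to 13.22). The 586 nt beyond the copy held 1139 counts at 1.944 per nt (1.832 to 2.06), a density lower by a factor of 6.699. A listed position stood at 55.5% of bases in the copy and at 40.1% of bases beyond it, so the difference lay more in the height of positions than in how many bases were listed. The highest position beyond the copy had a count of 35, and the highest in it had 664. The intergenic-labelled first 604 nt of the copy had 9.972 counts per nt (9.722 to 10.23).

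**Figure D2:**
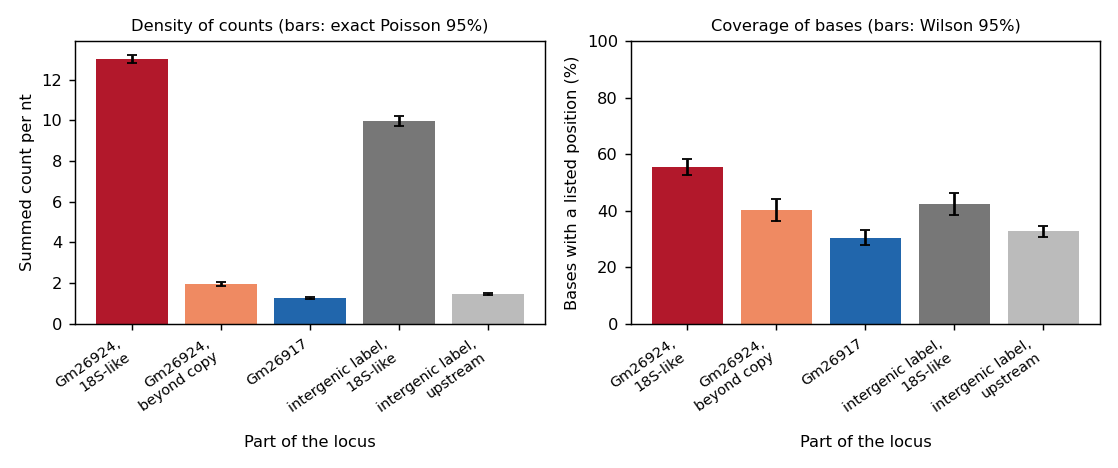
Summed count per nt (left) and percentage of bases with a listed position (right) in 5 stretches of the chromosome 17 locus, with 95% exact Poisson and Wilson error bars. The 18S-like stretches, at 13.02 and 9.972 counts per nt, stand above the 3 other stretches, all below 2.

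The first window, bases 1137 to 1161 of the copy, held 4634 counts, 26.71% of those of Gm26924, and each of its 25 bases was listed. The second, bases 859 to 883, held 1692 counts or 9.752%. The third, bases 1561 to 1585, held 1372 or 7.908%, and the fourth, bases 1743 to 1767, held 1344 or 7.746%. These 100 nt, 5.461% of the length of Gm26924, carried 52.12% of its counts. When Gm26924 was cut into 73 adjoining stretches of 25 nt, the median stretch held 89 counts and 5 stretches held none. The next window by sum, bases 1536 to 1560, held 613 counts.

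The counts within the windows stood at single bases or short runs of bases. In the first window the highest counts were 664 at the C of base 1152 (chr17:39847505), 527 at the C of base 1159, 501 at the C of base 1138 and 483 at the C of base 1153. A G at base 1137 had 289 and the base at 1160, a T in the genome sequence, had 235. Outside that window, the C of base 1746 had 478 and the C of base 1744 had 238, both in the fourth window. In the second window the T of base 877 had 362 and its neighbour, the A of base 876, had 336. The 10 highest positions of Gm26924 therefore all lay in 3 of the 4 windows, and together they held 4113 counts or 23.71%. The third window had no position among the 10, and its highest was 218 at base 1584.

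**Figure D3:**
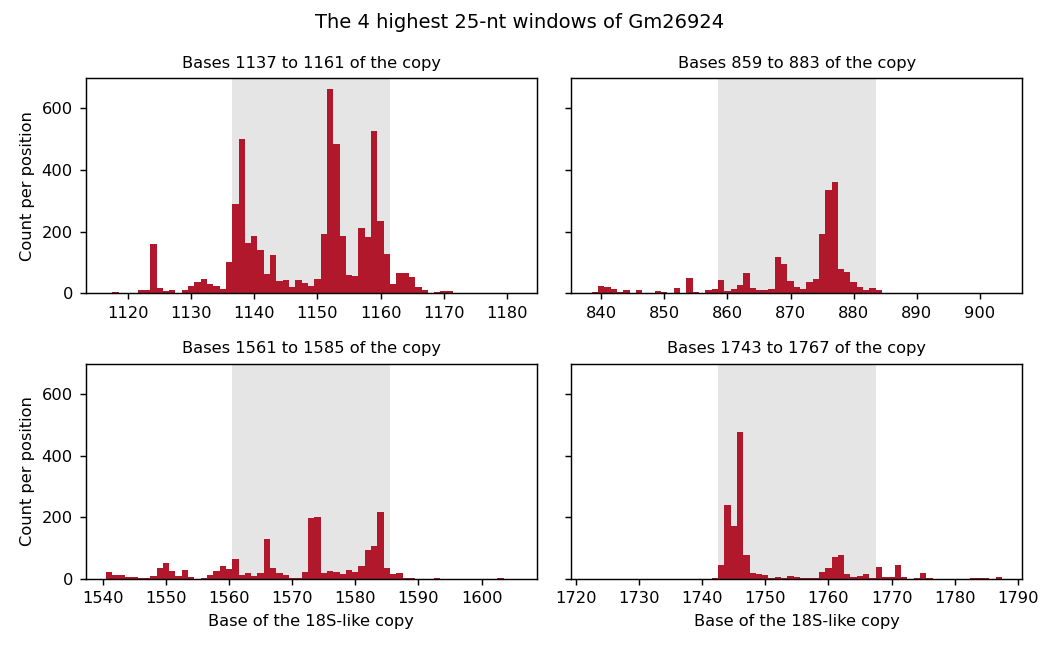
Count at each base of the 18S-like copy in the 4 highest windows of Gm26924 (shaded) and 20 bases on either side, on a shared axis. The first window holds 3 separate groups of high bases, with peaks of 501, 664 and 527, and the fourth window falls mostly on the bases next to its peak of 478.

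Malat1 and the mitochondrial rRNAs were set beside Gm26924 as other abundant RNAs. The 10 highest positions held 7.383% of counts in Malat1, 38.71% of 1475 counts in mt-Rnr1 and 21.88% of 4507 counts in mt-Rnr2. Gm26924, at 23.71%, was above Malat1 and between the mitochondrial rRNAs. The highest single count was 64 in Malat1, 163 in mt-Rnr1 and 213 in mt-Rnr2. Lars2, a mitochondrial tRNA synthetase gene, held 385 counts on 81 positions, with 48.83% at its 10 highest, above Gm26924. No stretch of Gm26924 without a listed position was longer than bases 705 to 818 of the copy. These 114 nt were 69.3% G and C, against 55.02% in all the copy inside Gm26924. Bases with copies elsewhere in the genome were not the larger part: the 30 bases downstream of a position occurred once in the primary assembly at 84.23% of Gm26924 positions, against 89.87% of the list's other positions. The bases at 1137 and 1138 were exceptions among the 10 highest, since their downstream 30 bases occurred 4 times. The assembly does not hold the rDNA repeats in full, so these shares do not count copies in the repeats.

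In GENCODE vM21, Gm26917, the annotated transcript just upstream (chr17:39843013-39846341, plus strand), ended 12 nt before the 18S-like copy. The list gave this name only to positions within chr17:39845084-39846244, a part of that interval. In an rDNA repeat that place is held by the external transcribed spacer, which is removed from the precursor. Its positions carried 2 labels: 275 were labelled ncRNA and held 1084 counts, and 77 were labelled intron and held 378. They lay over 1161 nt and had 1.259 counts per nt (exact Poisson interval 1.196 to 1.326), with 30.32% of bases listed. The intergenic-labelled rest of the same upstream stretch, most of it inside the vM21 interval of Gm26917, had 713 positions, 3129 counts and 1.435 counts per nt. Both densities were below those of the 18S-like copy and of the stretch beyond it.

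Single positions of Gm26917 had lower counts than those of Gm26924. Its highest positions had counts of 58, 42 and 32, at 414, 904 and 993 nt before the first base of the copy. The median count was 2, against 5 in Gm26924. Its highest position held 3.967% of its counts, against 3.827% in Gm26924, and its 10 highest held 20.25%, against 23.71%. The downstream 30 bases occurred once in the assembly at 100% of its positions.

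The rRNA-labelled genes were the smallest class, with 31 names, of which 30 matched a GENCODE gene. The unmatched name was 5S_rRNA-ENSMUSG00000098877, with 1 count. The 5.8S-like genes, n-R5-8s1 (chr18:73533403-73533550, minus strand) and Gm24601, held 173 counts on 28 positions, and 29 names of 5S-like genes held 131 counts on 84 positions. The 5.8S rRNA pairs with the 28S rRNA in the large ribosomal subunit, and the 5S rRNA enters that subunit with ribosomal proteins. The only 28S sequence in the reference was a piece of 420 nt on an assembly patch, so positions over 28S rRNA could not be looked for along its full length.

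The 5.8S-like genes differed in where their counts lay. In n-R5-8s1 (148 nt), 100 counts stood on 18 positions between bases 10 and 101. The highest was 38 at base 17, a C, followed by 13 at base 101 and 10 at base 70. In Gm24601 (143 nt), 73 counts stood on 10 positions, all between bases 35 and 45, with 20 at base 39. Gm24601 differed from n-R5-8s1 by 41 changes in alignment, and its base 39 aligned with base 40 of n-R5-8s1, which was not listed.

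The sequence of Gm24601 is shown because its counts fell in 1 short run of bases, and capitals mark listed positions.
Gm24601 (chr6:94826781-94826923, minus strand): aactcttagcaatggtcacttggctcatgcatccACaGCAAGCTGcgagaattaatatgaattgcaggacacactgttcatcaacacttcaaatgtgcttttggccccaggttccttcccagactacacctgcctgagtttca

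No listed position fell in a gene whose sequence was that of Rn5s, the 5S rRNA gene as GENCODE gives it (119 nt). GENCODE annotates 351 genes nearer to Rn5s than to the 5.8S gene, of which 32 were identical to Rn5s, all on chromosome 8, and 0 of these 32 had a listed position. Of 21 genes with 1 to 5 differences, 8 had positions, and these held 76 of the 130 counts that could be placed on a gene. Of 19 genes with 6 to 12 differences, 11 had positions with 30 counts, and of 279 with more differences, 9 had positions with 24. Of the 130 counts, 71.54% stood where the 30 bases downstream were not found in Rn5s. Near the end of the gene, as at base 98 of n-R5s109 with 3 counts, these bases run past Rn5s. No match was possible there, so it does not show a difference. The treatment of reads with several equal alignments was not stated in the sources used, and its part in these counts was not tested.

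The highest 5S-like sums were 20 in n-R5s2, 14 in n-R5s109, 12 each in n-R5s115 and n-R5s151, 8 each in n-R5s71 and n-R5s136 and 7 in n-R5s194. The next sum, 4, was shared by Gm26197, n-R5s156, n-R5s209, n-R5s56 and n-R5s65. No 5S-like position had a count above 6, a count reached at base 89 of n-R5s2 and base 10 of n-R5s136. The highest position of n-R5s151 had 4 at base 31 and that of n-R5s109 had 3 at base 98, while those of n-R5s115, n-R5s71 and n-R5s194 had 2. Along Rn5s, bases 1 to 20 had 32 counts, bases 21 to 40 had 31, bases 41 to 60 had 22, bases 61 to 80 had 16 and bases 81 to 100 had 29. The last 19 bases, 101 to 119, had 0. Little of the gene lies downstream of them, and whether reads starting there could be placed was not tested.

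**Figure D4:**
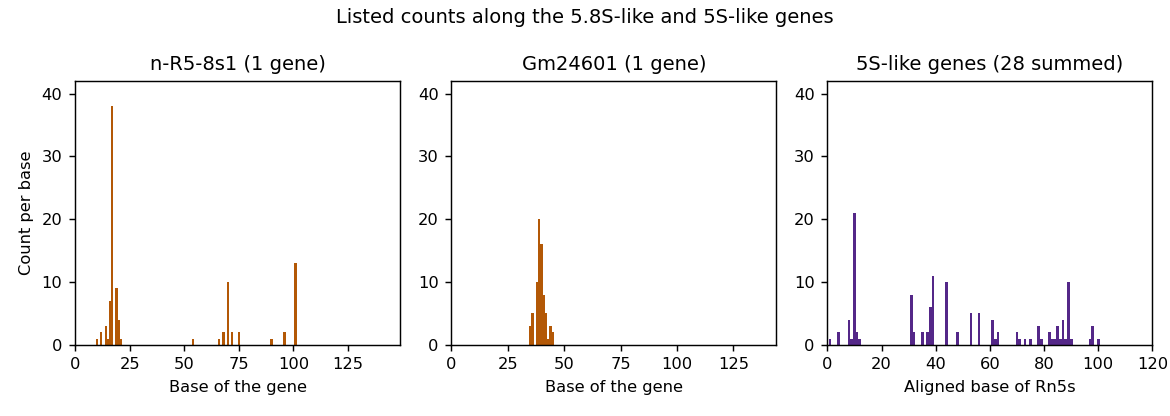
Listed counts along n-R5-8s1, along Gm24601 and, summed over 28 genes, along the aligned bases of Rn5s, on axes of equal height. Gm24601 has a single group of bases between 35 and 45, n-R5-8s1 has its highest count of 38 at base 17, and the 5S-like counts are spread over the first 100 bases.

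The crosslinked base differed between the members and the rest of the list. By count, 38.47% of member counts stood at cytidine (Wilson interval 37.78 to 39.16), 23.4% at uridine (22.8 to 24), 22.8% at guanosine and 15.34% at adenosine. In the rest of the list 18.78% stood at cytidine and 57.12% at uridine, and of positions labelled 3′ UTR 59.67% of counts stood at uridine. Malat1 had 54.54% at uridine and mt-Rnr2 40.07%. The sequence of Gm26924 is 28.07% cytidine and 22.12% uridine, while its counts were 38.32% and 22.85%. With each position counted once, cytidine stood at 25.92% of Gm26924 positions, below its share of the sequence, and uridine at 24.41%. In Gm26924 a share of cytidine above that of its own sequence was therefore seen only when positions were weighted by count. Against the rest of the list, cytidine was also higher with each position counted once, at 29.35% of member positions and 17.82% of the others.

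The 4 windows held different bases. In the fourth window 74.48% of counts stood at cytidine, and in the first 51.79% did. In the second, 49.41% stood at adenosine and 5.792% at cytidine, and in the third 40.01% stood at guanosine. Outside the windows cytidine held 34.18% and uridine 27.2% of the counts of Gm26924. In Gm26917, a sequence of 34.71% cytidine and 20.76% uridine, 37.89% of counts stood at cytidine and 32.28% at uridine. The base after the position was adenosine for 36.79% of member counts, against 28.2% in the rest of the list. With each position counted once the order turned, with adenosine after 20% of member positions and 26.05% of the others. By count, a cytidine followed by adenosine took 17.75% of member counts and 9.125% of the others, while a pair of uridines took 6.277% of member counts and 33.13% of the others.

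**Figure D5:**
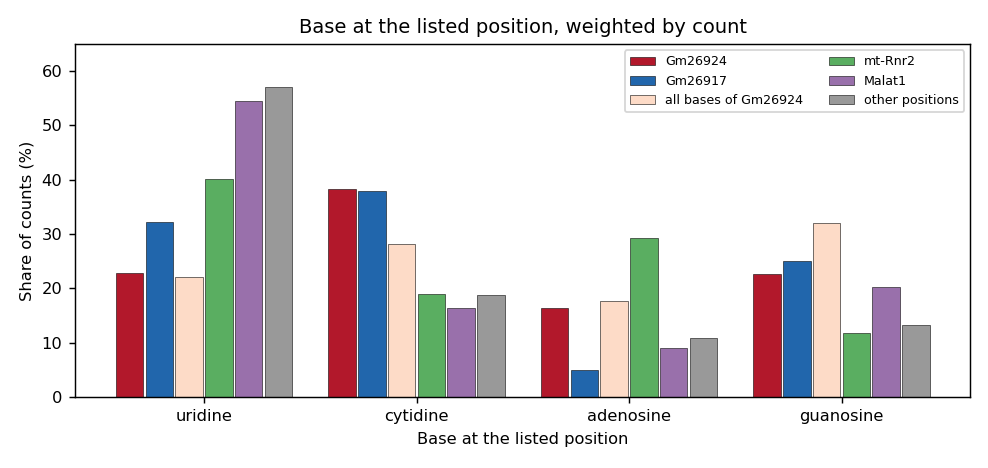
Share of counts at each base of the listed position for Gm26924, Gm26917, mt-Rnr2, Malat1 and all other positions of the list, with the base composition of Gm26924 itself as a pale bar. Cytidine holds the most counts in Gm26924 and Gm26917, and uridine in mt-Rnr2, Malat1 and the other positions.

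No member position lay near the AU-rich core bound by the ZFP36 family. TATTTA was searched on the strand of the position within 20 nt on either side, and 0 of 1390 member positions held it, against 10.59% of the other positions and 15.44% of those labelled 3′ UTR. The shorter ATTTA, which TATTTA contains, was likewise near 0 of the 19116 member counts and near 17.18% of the other counts. The letters TTTTT stood near 0.2825% of member counts and 29.9% of the others. The 0 at the 926 positions of Gm26924 was fixed by its sequence: TATTTA does not occur in the 18S-like copy or Gm26924, and ATTTA occurs 1 time in the copy and not in Gm26924. A missing match says only that these letters are not in the windows.

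By the authors' FDR, 30.7% of all listed positions were below 0.05, and 477 of 1390 member positions, 34.32% (Wilson interval 31.87 to 36.85), were, a share near that of the list. The share was 36.83% in Gm26924, 31.25% in Gm26917 and 23.21% among rRNA-labelled positions, against 52.55% in Malat1 and 48.58% in mt-Rnr2. The 341 positions of Gm26924 below 0.05 were all inside the 18S-like copy, and 0 of the 235 positions beyond it were, where the density was 1.944 counts per nt. The intergenic-labelled stretch upstream of the copy had a lower density, 1.435 per nt, yet 655 of its 713 positions were below 0.05. In Gm26924 and Gm26917 the FDR threshold split positions by the authors' extended value. That value equalled the sum of counts within 15 nt at 98.27% of member positions. In Gm26924 the lowest extended value below 0.05 was 334 and the highest not below it was 333. The matching values were 57 and 55 in Gm26917. In Malat1 they overlapped, with 34 the lowest below 0.05 and 43 the highest not below it. Over all positions the median extended value below 0.05 was 5. A position of Gm26924 with a count of 141 did not pass, while 29 with a count of 1 did. The extended value needed for a low FDR thus differed from gene to gene, and these shares rank neither the genes nor the parts of the locus by signal.

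Genes that make and process rRNA were described as the rest of the pathway. Of 16 genes of the RNA polymerase I machinery, all had a listed position, 7 had a position below an FDR of 0.05 and 1 had such a position in its 3′ UTR. The highest sums were 80 in Ubtf, the nucleolar factor that binds rDNA, 78 in Rrn3, the initiation factor of the polymerase, and 54 in Taf1b. Of 15 genes of 5S transcription and assembly, 11 had such a position and 2 had it in the 3′ UTR. Bdp1, a subunit of the factor that recruits RNA polymerase III, had 189 counts, Gtf3c2 116 and Gtf3c1 105. Of 30 processing and modification genes, 21 had such a position and 5 had it in the 3′ UTR, led by the exonuclease gene Xrn2 with 168 counts, Wdr12 with 95 and nucleolin, Ncl, with 83. For comparison, of 12541 listed protein-coding genes 63.62% had a position below 0.05 and 17.72% had it in the 3′ UTR.

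The RNAs chosen as non-coding RNAs of rRNA processing, a list that also held the RNase P RNA Rpph1, carried more counts than most of these mRNAs. Of 9 chosen, 8 had listed positions, and all 8 had a position below an FDR of 0.05. Of all 2051 listed names of non-coding biotypes 36.08% had one, and of the 233 with at least 12 listed positions, the fewest of any of the 8, 86.7% did. Their median sum was 96 counts, against 14, 26 and 22 in the 3 lists of genes above. Rpph1, the RNA of RNase P, which cuts tRNA precursors, had 393 counts, Rmrp, which cuts the rRNA precursor, had 377, and Snord118, the small nucleolar RNA U8 needed to form the 5.8S and 28S rRNAs, had 248. Their 1349 summed counts were below the 1462 of Gm26917 alone. Snord3a was not listed.

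Marker genes of cells of the thymus were described, and their crosslink counts do not test the thymus label. All 14 thymocyte markers were listed with 11356 summed counts, 13 had a position below 0.05 and 10 had it in the 3′ UTR. Of all listed protein-coding genes, 63.62% had a position below 0.05 and 17.72% had it in the 3′ UTR. Bcl11b had 3281 counts and Rag1 2270, while Rag2 had 67, Cd3d 31 and Ptcra 11 with no position below 0.05. Markers of other cells of the thymus had 3 counts for B cells, 7 for erythroid cells, 10 for thymic epithelium and 21 for myeloid cells. Stroma and endothelium had 313, of which Pecam1 held 301, and Cd79a, Csf1r, Foxn1 and Cdh5 were not listed. A position below 0.05 stood in 1 myeloid marker, Itgam, in 2 of 3 listed markers of epithelium, Epcam and Krt8, and in 2 of 3 of stroma and endothelium, Pecam1 and Col1a1. It lay in the 3′ UTR in Epcam, Pecam1 and Col1a1. Whether these cells add to the rRNA counts was not tested.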

How the data were processed

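Positions from iCLIP with a Brf1/2 antibody in thymocytes were analysed from a single list deposited by the authors, with 1 row for each stranded position. The submitters' processing notes name Bowtie and GRCm38 but no version, and no further step was stated in the sources used. The value, a whole-number count signed by strand, and the extended value are deposited scores whose scale the authors do not define further. The deposited p-value was not used, and the deposited FDR was used as a score with a threshold of 0.05. Some deposited FDR values lie above 1, such as 1.133 in n-R5-8s1. Counts per library are unknown, since the list has no library column, so depth is known only as the total of 814493 counts and no test between groups was made.

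Positions count from 0 in the list and were moved to count from 1: 1389 of 1389 placed member positions then lay inside their GENCODE vM21 gene, against 1388 unmoved. Over the 387861 list positions whose name has 1 gene there, 37 lay inside only when moved and 0 only when unmoved. The base shares rest on this. Cytidine held 38.47% of member counts at the position, 27.53% at 1 nt before it and 24.37% at 1 nt after it. Sequences came from the RefSeq GRCm38 genome. Members were taken by label. Sequence reaching 50 nt to each side of a position was searched against 358 rRNA sequences with blastn 2.17.0 (at least 30 nt and 90% identity), and 5S copies were aligned with edlib 1.3.9.post1. Shares carry Wilson and densities exact Poisson intervals at 95%. The functions were tested on simulated data. The members and the gene lists were chosen with earlier results of these data known. Genes named were Gm26924, Gm26917, the 10 highest rRNA-labelled names (ties included), their highest positions, 4 comparison genes and up to 3 genes of each list by summed count. The sequences shown and the windows were chosen after their values were seen. The sequences of 5S genes and 1 marker gene are not reported here.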

Additional observations from a re-analysis of the deposited data

How the results depend on the processing

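Of 25 alternatives to the 6 main shares, 18 moved a share beyond its counting interval and 7 did not; none has a replicate spread. The share of listed counts held by the members, 2.347%, was 0.3006% with each position counted once, 3.927% among positions with an FDR below 0.05, 2.729% with members taken by GENCODE interval, 2.267% without the highest position and 0.2215% without Gm26924. Chosen after seeing the data, adding the intergenic positions of the locus gave 3.471% and capping counts at 2 gave 0.366%. The share of member positions below the FDR threshold, 34.32%, was 29.31% without Gm26924 and 45.49% among counts of at least 3. The 10 highest positions held 21.52% of member counts, against 0.7905% with counts capped at 2, 19.87% without the highest position and 29.44% below the FDR threshold. Uridine held 23.4% of member counts, and 25.04% with positions counted once, 20.08% below the FDR threshold and 28.82% without Gm26924. A match to an annotated rRNA held for 92.35% of member counts, for 74.68% of positions and for 17.21% of counts without Gm26924. Leaving out the annotated rRNA at the position itself, an alternative also chosen after seeing the data, gave 0.8841%. The cause of these shifts was not tested beyond what each alternative removes. TATTTA stayed at 0 under all 4 of its alternatives, which are among the 7 that did not move a share. Counting positions once or keeping those below the FDR threshold could give no other value. The wider window and ATTTA were also largely fixed at 0 for the positions of Gm26924, since neither TATTTA nor ATTTA occurs in its sequence.

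No paired analysis was possible because the list has no library column, and for the same reason leaving out a replicate was not run. The counts come from an unstated number of libraries, and the sources used do not say whether duplicate reads were collapsed.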
